A study of Homo sapiens and Mus musculus with 29 samples.

Results

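The protein arginine methyltransferases are a family of 9 enzymes, PRMT1, PRMT2, PRMT3, CARM1 (also called PRMT4), PRMT5, PRMT6, PRMT7, PRMT8 and PRMT9. They were selected by gene symbol, and all 9 were found among the 58719 genes of the HPAF-II table and, as mouse orthologs, among the 54446 genes of the KPC table. HPAF-II is an established human line that belongs to the classical subtype of pancreatic ductal adenocarcinoma, and the KPC lines come from a genetically engineered mouse model of the same cancer. RNA-seq was available for 29 libraries, 21 from HPAF-II tumors and metastases and 8 from KPC lines, all given as RPKM, which scales reads to gene length and library size.

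HPAF-II cells were injected into the pancreas of NSG mice, which lack functional lymphocytes, and the animals received no drug and were killed at a humane endpoint. Their ages were not used here. Control tumors, labeled Cas-9-EV, numbered 3 from 3 mice. FOXA1-OE tumors, labeled Cas-9-FOXA1, numbered 3 from 3 mice and came from cells that had been given a FOXA1 transgene by lentivirus. Tumors labeled HNF4G-KO (HNF4G KO-EV) numbered 4 from 4 mice, and peritoneal metastases were taken from 2 of these mice. Tumors labeled HNF4G-KO + FOXA1-OE (HNF4G KO+FOXA1) numbered 5 from 4 mice, tumors 2 and 3 sharing an animal, with 4 metastases from 3 mice. Of these metastases, 1 was labeled as of the spleen, 2 as peri mets in fat and 1 as of the peritoneum. The knockout cells were a pool of 3 clones, whose frameshifts in HNF4G the study's methods call heterozygotic. The KPC libraries, both lines labeled WT, were 4 of a tumor line and 4 of the matched liver metastasis line, and what separates the replicates of a line is not stated beyond their number, so that p-values between these lines may measure technical spread only.

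Protein arginine methyltransferases transfer methyl groups from S-adenosylmethionine to arginine side chains of histones, RNA-binding proteins and transcription cofactors. Type I enzymes (PRMT1, PRMT2, PRMT3, CARM1, PRMT6 and PRMT8) make asymmetric dimethylarginine, type II enzymes (PRMT5 and PRMT9) make symmetric dimethylarginine, and the type III enzyme PRMT7 makes monomethylarginine. PRMT1 is known as the main type I activity of most cells, PRMT5 works in a complex with WDR77, and inhibitors of both have been studied in pancreatic cancer. PRMT1 was followed in the study as a cofactor, and the question asked here was whether the mRNA of PRMT1 and of its relatives differed between the tumor groups.

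Depth, worked out from the steps between low RPKM values, was 16.6 to 34.8 M steps per HPAF-II library and 15.0 to 22.2 M steps per KPC library. Taken as 2 reads to a step, these are 33.1 to 69.6 M reads and 30.1 to 44.4 M reads. How many reads make a step is not stated in the sources used here. HNF4G mRNA did not mark the knockout. Control tumors held it at 2.84 ± 0.547 RPKM (SD, n = 3), the tumors labeled HNF4G-KO at 7.09 ± 1.10 RPKM (SD, n = 4), a log2 difference of 1.07 (SE 0.37, adjusted p = 0.0698 by limma). The directions below rest on the labels. FOXA1 was at 0.519 to 0.932 RPKM in control tumors at 4.65 to 23.1 RPKM in tumors labeled HNF4G-KO + FOXA1-OE and at 6.32 and 8.18 RPKM in FOXA1-OE tumors 1 and 2, but it was at only 0.763 RPKM in FOXA1-OE tumor 3, within the control range. That library and HNF4G-KO + FOXA1-OE tumor 5 stood apart from the rest, with a median Pearson correlation to the other HPAF-II libraries of 0.829 and 0.884, against 0.908 to 0.956 for the others. Several member values are therefore also given without one or both of them. Epithelial markers (6 genes such as KRT8 and EPCAM) summed to 2834 to 5399 RPKM and none was at 0 in any HPAF-II library.

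In control tumors PRMT1 and PRMT5 had the highest RPKM of the family, and their ranges overlapped. PRMT1 was at 28.6 ± 3.13 RPKM and PRMT5 at 28.0 ± 2.73 RPKM (SD, n = 3). PRMT2 (12.4 ± 1.04 RPKM), CARM1 (9.68 ± 2.25 RPKM) and PRMT6 (7.70 ± 0.455 RPKM) followed, each overlapping the next. PRMT3 (4.10 ± 0.883 RPKM) and PRMT7 (3.41 ± 0.186 RPKM) overlapped as well, PRMT9 lay below them at 1.69 ± 0.152 RPKM, and PRMT8 was close to 0. These comparisons between genes are on the RPKM scale, which divides by gene length. The annotated exon length was 4796 bases for PRMT1, 3276 for PRMT5, 7603 for PRMT2 and 13884 for PRMT7. It covers all annotated exons of a gene, so that the order of the genes depends on the annotation. In mRNA, PRMT1 led the type I and PRMT5 the type II enzymes at similar RPKM, as the plot of RPKM by library shows.

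**Figure D1:**
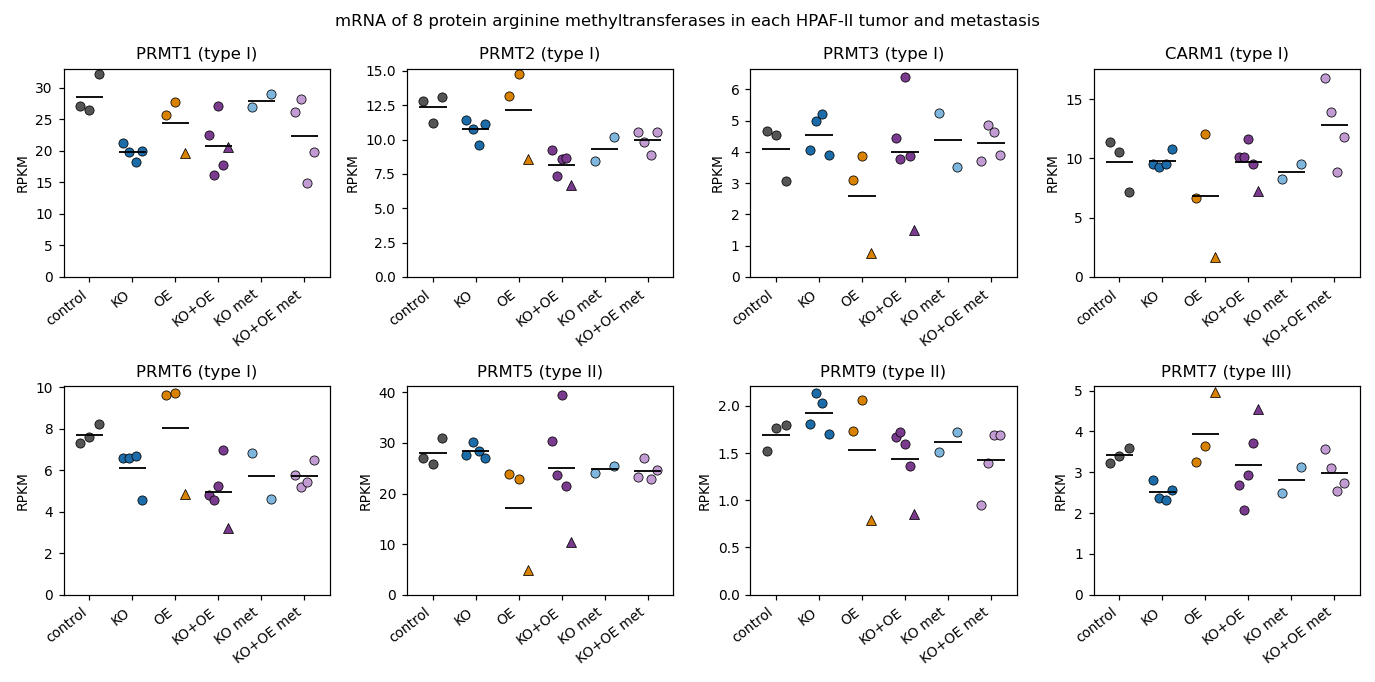
RPKM of the 8 detected members in each of the 21 HPAF-II libraries, by group (KO for HNF4G-KO, OE for FOXA1-OE, met for metastasis), with lines at the means over libraries and triangles for the 2 tumors that stood apart. PRMT1 in the tumors labeled HNF4G-KO (18.3 to 21.2 RPKM) lies below all control tumors (26.5 to 32.2 RPKM), and FOXA1-OE tumor 3 is far below the other tumors in PRMT5, CARM1 and PRMT3.

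PRMT8, a membrane-anchored type I enzyme known from the brain, was listed at 0 in 15 of 21 HPAF-II libraries, its highest value was 0.0170 RPKM, and it stayed below the filter of a mean of 1 RPKM. Mouse Prmt8 was listed at 0 in all 8 KPC libraries. The other 8 members passed the filter in both tables, so that 8 of 9 were tested in each comparison.

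The promoters of the 2 members with the highest RPKM, of PRMT3, the richest in CpG dinucleotides of those shown, and of the silent PRMT8 are shown, so that their makeup can be set beside these levels. RefSeq promoter windows (GRCh38.p14, from 250 bases before to 50 bases after an annotated start) were found for 9 of 9 members, 12 windows in all, and the stretch from 250 bases before to 30 bases after the start is printed, 5′ to 3′ on the strand of the gene. Capitals mark motifs searched on both strands, namely CCAAT (bound by NF-Y), GGGCGGG (SP factors), AAGATGGCG (YY1), CCGGAAG (ETS factors) and CACGTG (E-box), and a motif on the reverse strand appears as its reverse complement.
PRMT1, chr19:49677021-49677300, plus strand: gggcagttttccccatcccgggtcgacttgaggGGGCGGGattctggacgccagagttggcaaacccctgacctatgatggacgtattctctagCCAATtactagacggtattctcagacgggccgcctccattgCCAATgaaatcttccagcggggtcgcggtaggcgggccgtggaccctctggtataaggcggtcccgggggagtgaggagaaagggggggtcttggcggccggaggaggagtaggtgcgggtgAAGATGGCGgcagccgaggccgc
PRMT5, chr14:22929347-22929626, minus strand: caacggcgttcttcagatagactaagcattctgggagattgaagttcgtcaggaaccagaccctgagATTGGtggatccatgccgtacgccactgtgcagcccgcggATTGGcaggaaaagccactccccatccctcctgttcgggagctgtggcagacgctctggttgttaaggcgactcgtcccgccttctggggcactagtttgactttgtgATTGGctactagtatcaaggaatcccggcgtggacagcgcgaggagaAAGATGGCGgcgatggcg
PRMT3, chr11:20387466-20387745, plus strand: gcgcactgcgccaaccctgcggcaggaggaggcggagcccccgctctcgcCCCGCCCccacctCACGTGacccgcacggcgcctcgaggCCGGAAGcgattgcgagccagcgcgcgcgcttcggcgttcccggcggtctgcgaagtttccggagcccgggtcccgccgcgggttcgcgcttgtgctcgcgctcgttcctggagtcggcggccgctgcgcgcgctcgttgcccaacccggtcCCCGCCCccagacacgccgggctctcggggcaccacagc
PRMT8, chr12:3381099-3381378, plus strand: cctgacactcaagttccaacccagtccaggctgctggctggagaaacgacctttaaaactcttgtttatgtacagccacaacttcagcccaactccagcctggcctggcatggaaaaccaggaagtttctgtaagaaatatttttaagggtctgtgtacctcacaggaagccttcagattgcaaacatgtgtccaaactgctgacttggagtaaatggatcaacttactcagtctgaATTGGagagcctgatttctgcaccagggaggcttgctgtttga
The PRMT1 window held CCAAT beginning at -156 and -115 from the start and AAGATGGCG beginning at base 8 of the transcript, and the PRMT5 window held CCAAT at -183, -143 and -35 and AAGATGGCG at base 13. CCAAT was also in the PRMT8 window shown, at -13. Among all 35116 windows, CCAAT was found in 34.6% and AAGATGGCG in 1.75%. GGGCGGG, present in 33.1% of all windows, was found in windows of 6 members. These were PRMT1, PRMT2, PRMT3, CARM1, PRMT7 and PRMT8, the last in a window not shown. CCGGAAG (10.3% of windows) and CACGTG (7.26%) were found among the members in PRMT3. The letters CAAAGTCCA, a motif of HNF4 factors (0.384% of windows), and TGTTTAC, a motif of FOXA factors (3.42% of windows), were in none of the 12 member windows, which says nothing of sites elsewhere. CpG dinucleotides numbered 22 in the PRMT1 window, 20 in PRMT5 and 48 in PRMT3, against 1 in the PRMT8 window shown and a median of 14 over all windows. A further PRMT8 window, at another annotated start, held 30. Of the members not shown, PRMT9, the tested member of lowest RPKM, had 33. PRMT6 had 25, PRMT2 36, the windows of PRMT7 33 and 30, and those of CARM1 56 and 22.

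PRMT1, which deposits most asymmetric dimethylarginine in many cell types, was the only member past the threshold in any comparison between tumor groups. Its RPKM was 27.1, 26.5 and 32.2 in the control tumors, compared with 21.2, 19.8, 18.3 and 20.0 in those labeled HNF4G-KO. Every tumor labeled HNF4G-KO was lower than every control tumor. PRMT1 fell by 0.50 on the log2(RPKM + 1) scale (SE 0.15, 95% CI -0.83 to -0.18), which passed limma's test across 14269 genes with an adjusted p of 0.0457. The exact permutation test of this gene alone gave 0.0571 (two-sided), the smallest p that 3 against 4 mice allow. Read against all genes, the members did not stand apart. PRMT1 was 1 of 8 members called where 12.2% of all genes tested were called, and 3 of 8 (PRMT1, PRMT6 and PRMT7) did not overlap between the groups where 46.4% of all genes did not.

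The PRMT1 call was close to the threshold and was lost when any single mouse of either group was left out, with differences of -0.55 to -0.42 and adjusted p of 0.0688 to 0.184 by limma over the 7 fits. The direction held in all 16 alternatives, and the call in 6 of them. Since PRMT1 did not overlap between the groups, leaving out a mouse could not change its direction. With the 2 tumors that stood apart left out, PRMT1 was at -0.50 (adjusted p = 0.00981 by limma), where 31.8% of all genes were called. The tumors labeled HNF4G-KO also differed from the controls in how their values ran with the exon length and GC content of genes. The Spearman correlation of a library's deviations with exon length was 0.265 to 0.423 in these tumors and -0.291 to -0.0661 in control tumors. With GC content it was -0.528 to -0.0877 in these tumors and 0.00643 to 0.175 in control tumors. With a trend on exon length and GC content removed from each library, PRMT1 was at -0.49 (adjusted p = 0.0195 by limma), where 16.6% of all genes were called. Marker genes of host stroma, whose mouse reads can align to human genes, summed to 45.9 to 165 RPKM in control tumors and 41.0 to 60.2 RPKM in tumors labeled HNF4G-KO, with none of the 10 at 0. With these markers as a covariate PRMT1 was at -0.50 (adjusted p = 0.0494 by limma), where 22.3% of all genes were called. Host acinar markers (7 genes) summed to 335 RPKM in control tumor 2, but to 3.29 and 3.74 RPKM in control tumors 1 and 3. They summed to 0.515 to 7.78 RPKM in the tumors labeled HNF4G-KO, with 1 to 2 of them at 0 in these tumors. Without control tumor 2, PRMT1 was at -0.55 (adjusted p = 0.116 by limma). In bulk tumors, fewer cells with a transcript and less of it per cell cannot be told apart.

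PRMT1 in the other groups lay between these levels or near the lower of them. FOXA1-OE tumors were at 25.7, 27.8 and 19.7 RPKM, the lowest being tumor 3, and overlapped the controls (log2 difference -0.23, 95% CI -0.58 to 0.12, adjusted p = 0.840 by limma). Without tumor 3 the difference was -0.09. Tumors labeled HNF4G-KO + FOXA1-OE were at 22.6, 16.1, 27.1, 17.7 and 20.6 RPKM, of which the second and the third came from 1 mouse. Averaged by mouse they were at 20.5 ± 2.03 RPKM (SD, n = 4) and below the controls by a log2 difference of -0.46 (SE 0.15, adjusted p = 0.102 by limma, exact permutation p = 0.0571, the smallest possible). Against tumors labeled HNF4G-KO they differed by 0.04 (95% CI -0.26 to 0.34, adjusted p = 0.877 by limma). The FOXA1-OE difference with and without the HNF4G-KO label itself differed by 0.27 (SE 0.21, 95% CI -0.19 to 0.73, adjusted p = 0.792 by limma), and 0.035% of all genes were called for that interaction. Without FOXA1-OE tumor 3 the interaction was 0.13 (adjusted p = 0.745 by limma).

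PRMT2 is a weak type I enzyme that also acts as a nuclear receptor coactivator. PRMT6 methylates histone H3 at a position opposed to activating H3K4 methylation. Both had their lowest mean among the tumor groups in the tumors labeled HNF4G-KO + FOXA1-OE. The RPKM of PRMT2 was 12.8, 11.2 and 13.1 in control, 11.4, 10.8, 9.59 and 11.1 in HNF4G-KO, and 13.2, 14.8 and 8.60 in FOXA1-OE tumors. Tumors labeled HNF4G-KO + FOXA1-OE were at 9.26, 7.37, 8.61, 8.68 and 6.70 RPKM, below every control tumor and every tumor labeled HNF4G-KO. The log2 difference was -0.55 against control (SE 0.17, adjusted p = 0.0891 by limma), -0.50 against FOXA1-OE (SE 0.17, adjusted p = 0.0930) and -0.36 against HNF4G-KO (SE 0.16, adjusted p = 0.231). None of the 3 passed the threshold. Between HNF4G-KO and control PRMT2 differed by -0.19 (95% CI -0.56 to 0.18).

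For PRMT6 the RPKM was 7.33, 7.58 and 8.21 in control and 6.58, 6.58, 6.69 and 4.55 in HNF4G-KO tumors, with no overlap but a difference of -0.31 that did not pass (adjusted p = 0.405 by limma). It was at 9.60, 9.71 and 4.86 RPKM in FOXA1-OE tumors, the last being tumor 3. The tumors labeled HNF4G-KO + FOXA1-OE were at 4.80, 4.59, 5.24, 6.96 and 3.22 RPKM, below all 3 controls. Their log2 difference was -0.58 against control (SE 0.24, adjusted p = 0.198 by limma) and -0.58 against FOXA1-OE (SE 0.24, adjusted p = 0.153). PRMT2 and PRMT6 thus went in the same direction in the comparisons of tumors labeled HNF4G-KO + FOXA1-OE, whose controls are shared.

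Over the 8 members, all 8 differences between HNF4G-KO + FOXA1-OE and control were below 0, with a median of -0.28 against -0.06 for all genes, but none was called, where 4.7% of all genes were called. The signs were not all kept, since CARM1 was at 0.02 and PRMT7 just above 0 with samples shifted to the same median, and PRMT3 was at 0.12 and CARM1 at 0.39 with host stroma as a covariate. Averaged by mouse, PRMT1, PRMT2 and PRMT6 did not overlap between these groups, as did not 18.9% of all genes. Taken alone, HNF4G-KO + FOXA1-OE tumor 3 had PRMT1 at 27.1 RPKM, within the range of the control tumors (26.5 to 32.2 RPKM). Against FOXA1-OE no member was called, where 7.86% of all genes were called. These counts changed with the tumors that stood apart. Without both of them, PRMT1 (-0.47, adjusted p = 0.0423) and PRMT2 (-0.47, adjusted p = 0.0275) passed against control by limma, where 8.89% of all genes were called. In the same fit, PRMT2 (-0.64, adjusted p = 0.0133) and PRMT6 (-0.72, adjusted p = 0.0281) passed against FOXA1-OE, where 9.31% of all genes were called. Leaving out FOXA1-OE tumor 3 alone gave PRMT2 at -0.72 (adjusted p = 0.0143 by limma) and PRMT6 at -0.87 (adjusted p = 0.0285), where 7.42% were called. With the trend on exon length and GC content removed, PRMT1 (-0.47, adjusted p = 0.0311 by limma) and PRMT2 (-0.51, adjusted p = 0.0141) passed against control, where 9.69% of genes were called, and PRMT2 (-0.52, adjusted p = 0.00952) passed against FOXA1-OE, where 14.3% were called.

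**Figure D2:**
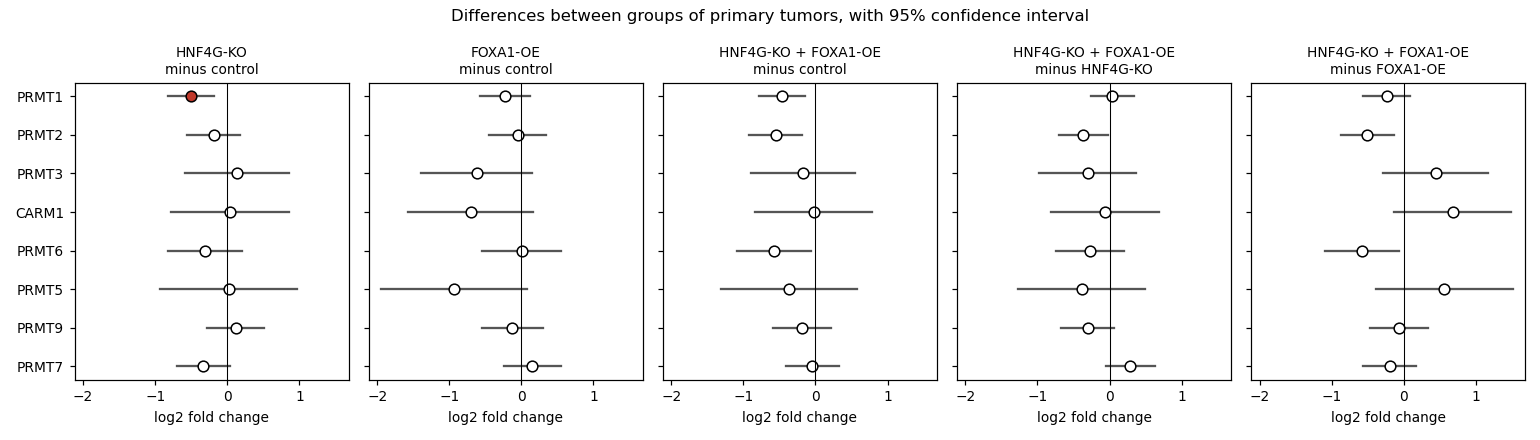
Log2 fold changes of the 8 tested members on the log2(RPKM + 1) scale in 5 comparisons of tumor groups, with 95% confidence intervals from limma and filled red points for an adjusted p under 0.05. PRMT1 in HNF4G-KO against control (-0.50) is the only filled point, and the intervals of PRMT5 and CARM1 are the widest.

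CARM1, which methylates histone H3 and coactivators such as NCOA3, and PRMT3, which methylates the ribosomal protein RPS2, overlapped between control tumors and tumors labeled HNF4G-KO. The RPKM of CARM1 was 11.4, 10.5 and 7.13 in the former and 9.54, 9.30, 9.57 and 10.8 in the latter (log2 difference 0.04, 95% CI -0.77 to 0.85). That of PRMT3 was 4.66, 4.55 and 3.08 in the former and 4.07, 5.00, 5.21 and 3.90 in the latter (log2 difference 0.13, 95% CI -0.59 to 0.85). Both intervals are wide, so that neither a rise nor a fall can be set aside. FOXA1-OE tumors spread the most, with CARM1 at 6.70, 12.0 and 1.67 RPKM and PRMT3 at 3.10, 3.88 and 0.768 RPKM. The tumors labeled HNF4G-KO + FOXA1-OE had CARM1 at 10.1, 10.1, 11.6, 9.50 and 7.27 RPKM and PRMT3 at 4.43, 3.78, 6.39, 3.88 and 1.51 RPKM. Both groups overlapped the controls in both genes. Against FOXA1-OE, CARM1 differed by 0.68 (SE 0.38, adjusted p = 0.297 by limma). With FOXA1-OE tumor 2, which has the highest CARM1 of that group, left out, the difference was 1.19 (adjusted p = 0.0403 by limma, 9.27% of all genes called), and without tumor 3, which has the lowest, it was 0.05 (adjusted p = 0.932 by limma), so that the value depended on which FOXA1-OE tumors entered. YIPF2, on the opposite strand, overlaps CARM1 and was at a median of 13.7 RPKM.

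PRMT5, the main type II enzyme, which methylates Sm proteins and histones, had overlapping ranges in control tumors and tumors labeled HNF4G-KO. The RPKM was 27.0, 25.9 and 31.1 in control and 27.7, 30.3, 28.4 and 27.0 in HNF4G-KO tumors (log2 difference 0.02, 95% CI -0.93 to 0.97). FOXA1-OE tumors were at 23.8, 22.9 and 4.91 RPKM, all below the controls, for a difference of -0.93 (SE 0.47, adjusted p = 0.840 by limma), which was -0.25 without tumor 3. It was the 1 of 8 tested members that did not overlap in that comparison, as did not 9.25% of all genes. No gene was called between FOXA1-OE and control by limma (0% of 14269), and 652 genes had an unadjusted p under 0.05, none of them a member. In tumors labeled HNF4G-KO + FOXA1-OE PRMT5 ranged from 10.3 RPKM in tumor 5 to 39.4 RPKM in tumor 3, with the others at 30.4, 23.7 and 21.5 RPKM. All 4 groups of primary tumors share an estimate of spread. The 2 tumors that stood apart thus entered the PRMT5 interval of every comparison among these groups. How much of its width came from them was not tested. An antisense gene, PRMT5-AS1, overlaps PRMT5, but it was at no more than 0.833 RPKM in any HPAF-II library.

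PRMT9, the other type II enzyme, whose known substrate is the splicing factor SF3B2, had the lowest mean of the 8 in all groups. Its RPKM was 1.52, 1.76 and 1.80 in control, 1.81, 2.14, 2.03 and 1.70 in HNF4G-KO, and 1.73, 2.06 and 0.793 in FOXA1-OE tumors. Tumors labeled HNF4G-KO + FOXA1-OE were at 1.67, 1.73, 1.59, 1.37 and 0.854 RPKM. Averaged by mouse these lay below all tumors labeled HNF4G-KO, as those of PRMT2 did (exact permutation p = 0.0286 for each, two-sided, the smallest possible for 4 against 4 mice), but the limma difference of -0.30 had an adjusted p of 0.306. No member was called in that comparison, where 0.0561% of all genes were called, and 2 of 8 did not overlap, as did not 15.2% of all genes. TMEM184C, on the opposite strand, overlaps PRMT9 and was at a median of 5.64 RPKM. The strand setting of the counting is not given in the sources used here.

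PRMT7, the type III enzyme, was below the controls in tumors labeled HNF4G-KO, like PRMT1, and was highest in the 2 tumors where PRMT5 was lowest. Its RPKM was 3.23, 3.40 and 3.60 in control and 2.81, 2.37, 2.31 and 2.56 in HNF4G-KO tumors, with no overlap. The log2 difference of -0.33 (SE 0.17, 95% CI -0.70 to 0.04) did not pass when all 4 groups shared a spread (adjusted p = 0.211 by limma). In a fit of these 2 groups alone it did (-0.33, adjusted p = 0.0287 by limma), beside PRMT1 (adjusted p = 0.00853), where 39.7% of all genes were called. In FOXA1-OE tumors PRMT7 was at 3.25, 3.64 and 4.96 RPKM. In tumors labeled HNF4G-KO + FOXA1-OE it was at 2.68, 2.07, 2.94, 3.71 and 4.55 RPKM. The highest of each group was the tumor that stood apart. SMPD3, on the opposite strand, overlaps PRMT7 and was at a median of 6.38 and at most 16.0 RPKM.

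In these 2 tumors the members moved apart from each other. In FOXA1-OE tumor 3, PRMT5 at 4.91 RPKM lay far below the other 13 primary tumors (21.5 to 39.4 RPKM). Its log2 difference from their median was -2.25, which was at percentile 0.911 of the same difference over the 14269 genes. CARM1 at 1.67 RPKM (-2.06 from a median of 10.1 RPKM, percentile 1.30) and PRMT3 at 0.768 RPKM (-1.52, percentile 4.27) were also below all 13. PRMT1 at 19.7 RPKM was inside the range of the others and at percentile 50.6, and PRMT7 at 4.96 RPKM was above it (0.60, percentile 81.9). HNF4G-KO + FOXA1-OE tumor 5 had PRMT5 at 10.3 RPKM (-1.31, percentile 1.46) and PRMT3 at 1.51 RPKM (-1.01, percentile 5.15). PRMT2, PRMT6 and PRMT9 were also below the range in that tumor, PRMT7 was above it and PRMT1 and CARM1 were inside. The 2 tumors were picked from the whole table and not by these genes, and no test was made of them. What set the 2 libraries apart was not tested.

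**Figure D3:**
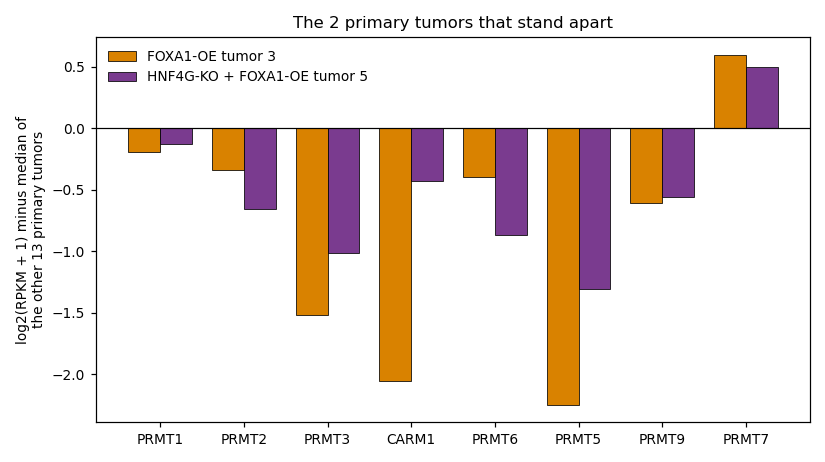
Difference of the 2 tumors that stood apart from the median of the other 13 primary tumors, in log2(RPKM + 1), for each tested member. PRMT5 has the lowest bars (-2.25 and -1.31), PRMT1 is close to 0 in both (-0.19 and -0.13), and PRMT7 is above 0 in both (0.60 and 0.50).

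Over 19 mouse-level values of tumors and metastases, PRMT3 and PRMT5 had a Pearson correlation of 0.91, PRMT5 and CARM1 0.80, and PRMT5 and PRMT7 -0.76. Without the 2 tumors that stood apart (17 values) these were 0.19, -0.07 and -0.39, so that they rested on those 2 libraries. PRMT2 and PRMT6 had a correlation of 0.77 with these tumors and 0.66 without them, and PRMT3 and PRMT7 -0.84 and -0.65. Values of a mouse share its tumor line and groups differ in their means, and the correlations are descriptions. The genes most like PRMT1 over these 19 values, of 7654 compared, were PSMB5 (Pearson correlation 0.88), a proteasome subunit, RANBP1 (0.88), a cofactor of the Ran GTPase, and NR2C2AP (0.87). Those most like PRMT5 were DLST (0.97), RHEB (0.97) and AIMP2 (0.96), and those most like CARM1 were MIR4658 (0.96), VPS52 (0.95) and NAPA (0.95). Over the 17 values without the 2 tumors, the correlations with PRMT1 were 0.88, 0.93 and 0.94, those with PRMT5 0.54, 0.68 and 0.43, and those with CARM1 0.82, 0.78 and 0.74.

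The ratio of PRMT1 to PRMT5 RPKM within a library does not depend on the scaling of that library. It was formed after the values had been seen and is given as a description. The genes differ in exon length (4796 bases for PRMT1, 3276 for PRMT5) and in GC content of the longest transcript (56.8% and 51.9%). Trends on these need not cancel in the ratio, and no ratio without them was worked out. The ratio was 1.00 to 1.04 in the 3 control tumors and 0.642 to 0.767 in the 4 tumors labeled HNF4G-KO, where PRMT5 was the higher of the pair in every tumor. In tumors labeled HNF4G-KO + FOXA1-OE it was 0.680 to 0.823 in 4 tumors and 1.99 in tumor 5. FOXA1-OE tumors were at 1.08, 1.22 and, in tumor 3, 4.01. Of the summed RPKM of the type I enzymes, PRMT1 made up 42.8% to 50.5% in control tumors and 37.0% to 40.2% in tumors labeled HNF4G-KO.

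**Figure D4:**
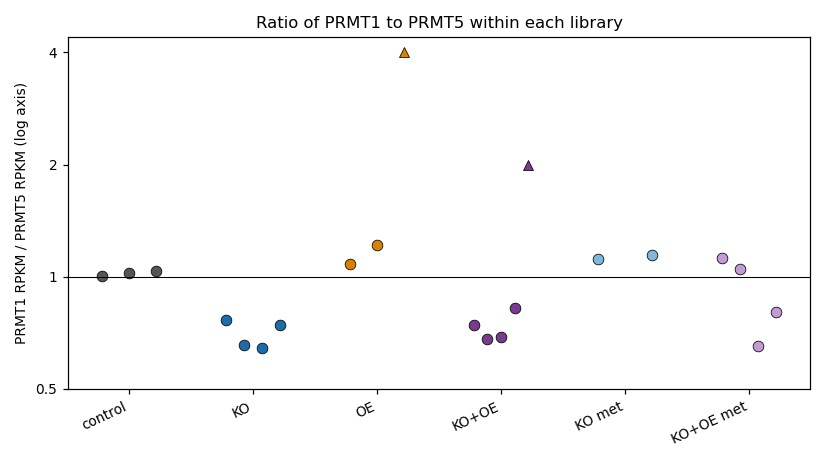
Ratio of PRMT1 to PRMT5 RPKM in each HPAF-II library on a log axis, by group (KO for HNF4G-KO, OE for FOXA1-OE, met for metastasis), with triangles for the 2 tumors that stood apart and a line at a ratio of 1. The 4 tumors labeled HNF4G-KO (0.642 to 0.767) lie below the line, and the control tumors (1.00 to 1.04) and the metastases labeled HNF4G-KO (1.11 and 1.14) lie on or above it.

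In metastases labeled HNF4G-KO PRMT1 was at 26.9 and 29.0 RPKM, above all 4 primary tumors of this label (18.3 to 21.2 RPKM). The log2 difference of 0.47 (SE 0.21, 95% CI 0.03 to 0.92) did not pass limma's test (adjusted p = 0.352), and the exact permutation p of 0.133 was the smallest that 2 against 4 mice allow. PRMT5 was at 24.1 and 25.4 RPKM, below all 4 tumors, for a difference of -0.19 (adjusted p = 0.827 by limma), and the ratio of PRMT1 to PRMT5 was 1.11 and 1.14. These 2 of 8 members did not overlap between metastases and tumors, as did not 33% of all genes, and no member was called, where 0.0426% of all genes were. Host stroma markers summed to 61.4 and 345 RPKM in these metastases, and the values ran with exon length less than in the tumors (Spearman correlations of -0.153 and -0.123). With GC content the correlations were -0.388 and 0.124. With these markers as a covariate PRMT1 was at 0.64 (adjusted p = 0.217 by limma), and with the trend on exon length and GC content removed at 0.57 (adjusted p = 0.169), higher in the metastases each time but not past the threshold.

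Metastases labeled HNF4G-KO + FOXA1-OE spread widely in PRMT1. It was at 26.2 RPKM in the spleen metastasis and at 28.3 RPKM in one labeled peri mets in fat of the same mouse. It was at 14.9 RPKM in a metastasis of a mouse without a tumor here, and at 19.8 RPKM in the last. FOXA1 was at 0.535 RPKM in the spleen metastasis, within the control tumors' range, and at 17.9, 1.30 and 1.55 RPKM in the others, -1.53 from the tumors on the log2 scale (adjusted p = 0.262 by limma), so that directions here too rest on the labels. By mouse, the difference from the tumors was -0.02 (95% CI -0.42 to 0.37, adjusted p = 0.971 by limma), and no member was called, where 0.00709% of all genes were called. CARM1 had the largest difference, 0.30 (SE 0.18, adjusted p = 0.563 by limma), with 16.8, 13.9, 8.89 and 11.8 RPKM. PRMT2 was at 10.6, 9.84, 8.85 and 10.5 RPKM, 3 of them above every tumor of this label (log2 difference 0.25, adjusted p = 0.547 by limma). In the 4 mice that gave both tissues, PRMT1 was higher in the metastasis than in the tumor each time, in log2(RPKM + 1). The differences were 0.42 and 0.51 in mice labeled HNF4G-KO and 0.26 and 0.16 in mice labeled HNF4G-KO + FOXA1-OE. How many of all genes kept a direction in these 4 mice was not counted, so that PRMT1 is not singled out. With the mouse as a block no member was called. PRMT3, PRMT6, PRMT7 and PRMT9 overlapped between metastases and tumors under both labels.

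The 53 genes that supply, partner, read or undergo arginine methylation were taken as lists, and 49 passed the filter. Between HNF4G-KO and control, 7 were called, 1 higher and 6 lower, which is 14.3% of the 49 against 12.2% of all genes. Of 7 PRMT partners, WDR77, the obligate partner of PRMT5, fell from 13.2 ± 1.35 RPKM in control tumors to 7.14 ± 1.07 RPKM (log2 difference -0.81, SE 0.17, adjusted p = 0.0135 by limma), while PRMT5 itself differed by 0.02. Of 14 substrates of PRMT1 and type I enzymes, FBL, the methyltransferase of ribosomal RNA, fell from 78.0 ± 9.53 to 39.4 ± 2.50 RPKM (-0.96, adjusted p = 0.0151) and SERBP1, an mRNA-binding protein, fell from 63.2 ± 2.23 to 42.3 ± 4.08 RPKM (-0.57, adjusted p = 0.0309). Of 7 substrates of PRMT5, PRMT9 and PRMT3, the Sm proteins SNRPB (-0.77, adjusted p = 0.0435) and SNRPD3 (-0.64, adjusted p = 0.0472) and the ribosomal protein RPS2 (-1.26, adjusted p = 0.0125) fell. RPS2 has many processed copies in the genome, which can share its reads. The median of these 7 was -0.54, against 0.01 for all genes. Of 6 substrates of CARM1, NCOA3, a nuclear receptor coactivator, rose from 7.83 ± 0.885 to 15.5 ± 1.14 RPKM (0.90, adjusted p = 0.00695). These values are means ± SD over 3 control mice and 4 mice labeled HNF4G-KO.

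No gene was called among those that supply S-adenosylmethionine (7 tested, median 0.19), readers of methylarginine (4 tested, median 0.24) and enzymes that hydrolyse methylarginine or deiminate arginine (4 tested, median 0.00). With the trend on exon length and GC content removed, 12 of 49 were called (24.5%, against 16.6% of all genes), and SNRPD3 lost its call at a larger difference (-0.69, adjusted p = 0.0710 by limma). Without the 2 tumors that stood apart, 17 were called (34.7%, against 31.8%). SERBP1 was also lower in tumors labeled HNF4G-KO + FOXA1-OE against control (-0.69, adjusted p = 0.0223 by limma) and against FOXA1-OE (-0.55, adjusted p = 0.0451), and NCOA3 was higher against FOXA1-OE (0.67, adjusted p = 0.0261). None of the 49 was called in the other comparisons of HPAF-II samples, and none of 48 in the KPC comparison.

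In the KPC lines Prmt1 was the highest of the family and overlapped no other member. It was at 49.8, 40.0, 34.5 and 47.7 RPKM in the tumor line and 53.0, 48.6, 30.7 and 45.9 RPKM in the liver metastasis line (replicates 1 to 4). Carm1 (18.9 ± 1.44 RPKM in the tumor line, SD, n = 4) and Prmt5 (18.0 ± 2.42 RPKM) came next and overlapped, followed by Prmt2 (13.0 ± 2.19 RPKM), which overlapped Prmt5. Prmt7 and Prmt3 overlapped at 7.81 ± 2.80 and 7.73 ± 0.999 RPKM. Of the 8 tested members, Prmt6 and Prmt9 were lowest at 3.39 ± 0.383 and 3.24 ± 0.287 RPKM. The ratio of Prmt1 to Prmt5 was 2.01 to 2.91 over the 8 libraries, above all HPAF-II libraries other than FOXA1-OE tumor 3. Species and culture both differ between these samples, and the tables were not compared by a test. RPKM divides by exon length, annotated at 4796 bases for PRMT1 and 3276 for PRMT5 in human. In mouse it is 3425 bases for Prmt1 and 3958 for Prmt5, so that the ratio is not on the same scale in both species.

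No member was called between the KPC lines. The log2 differences ran from -0.05 for Carm1 to 0.05 for Prmt9, with 95% intervals that reached from -0.53 to 0.52 over the members. The adjusted p by limma was 1 for each of them, and 0 of 12585 genes were called (0%), with 109 at an unadjusted p under 0.05. The replicates did not agree on a direction. Prmt7 was at 10.4, 9.69, 4.34 and 6.79 RPKM in the tumor line and 6.92, 6.52, 7.78 and 8.66 RPKM in the metastasis line, lower in the metastasis line in replicates 1 and 2 and higher in replicates 3 and 4. In replicates 1 and 2 alone, Prmt7 differed by -0.52 (adjusted p = 0.0110) and Prmt2 by 0.42 (adjusted p = 0.0320) by limma, where 25.5% of all genes were called. In replicates 3 and 4 alone they differed by 0.52 (adjusted p = 0.374) and -0.40 (adjusted p = 0.376), where 0.635% of all genes were called. Prmt1, Prmt3, Carm1, Prmt6 and Prmt9 also changed sign between these pairs of replicates. Prmt5 was lower in the metastasis line at each of the 4 numbers (log2 -0.09 to -0.02), but its ranges in the lines overlapped. The numbers did not pair the libraries, since those of the same number correlated by -0.412 to 0.209. What separates replicates 1 and 2 from replicates 3 and 4 was not tested. These directions rest on the label of each library, and a count of 0 over replicates that went opposite ways does not show that the lines are alike.

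**Figure D5:**
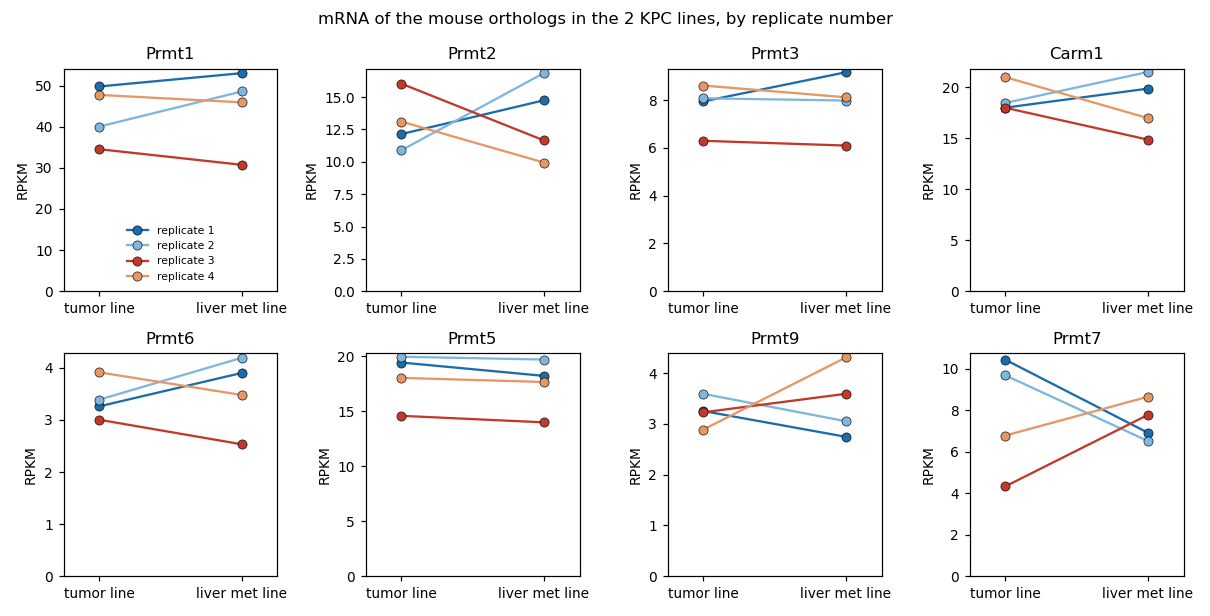
RPKM of the mouse orthologs in the tumor and liver metastasis lines of the KPC model, by replicate number, each point a library. Prmt7 is lower in the metastasis line in replicates 1 and 2 (10.4 and 9.69 against 6.92 and 6.52 RPKM) and higher in replicates 3 and 4 (4.34 and 6.79 against 7.78 and 8.66 RPKM).

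Sequence shared with the mouse orthologs was counted as exact words of 50 bases. Reads with mismatches can also align, so that these counts do not limit how many reads of mouse host cells reached the human genes. Of the 5247 words of 50 bases in the annotated PRMT1 transcripts, 74 (1.41%) occurred in mouse Prmt1 transcripts. The same held for 65 of 4036 (1.61%) in PRMT5 and 16 of 4777 (0.335%) in CARM1. PRMT6, PRMT7 and PRMT9 shared no word, though their longest shared stretches were 47, 49 and 42 bases. The pseudogene PRMT1P1 shared 13 words with PRMT1 and was at 0.113 to 0.848 RPKM. PRMT1 and PRMT8, the closest relatives of the family, shared no word of this length. PRMT5-AS1, on the opposite strand, shared 688 words (17.0%) with PRMT5. In GRCh38, PRMT1 lies at chr19:49675786-49689029, PRMT2 at chr21:46635595-46665124, PRMT3 at chr11:20387558-20509338, CARM1 at chr19:10871553-10923075, PRMT6 at chr1:107056674-107067636, PRMT7 at chr16:68310951-68360852 and PRMT8 at chr12:3381349-3593973, all on the plus strand. PRMT5, at chr14:22920525-22929408, and PRMT9, at chr4:147637785-147684163, lie on the minus strand.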

How the data were processed

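RNA was sequenced from 21 HPAF-II tumors and metastases and 8 KPC libraries as 50-base single-end reads of a stranded mRNA kit. After alignment with STAR, RPKM were deposited by the authors, 1 table for HPAF-II and 1 for KPC. The submitters' processing notes name STAR 2.6.1a, featureCounts 2.0.4, DESeq2 and the builds hg38, GRCh38, mm10 and GRCm38, although GRCh37 is the human build of the paper's methods. No scaling between samples is stated. RPKM are relative to each library's total, so that a few very high genes can lower all others, and mitochondrial genes held 17.0% to 52.8% of all RPKM in HPAF-II libraries. The KPC table has 12 further value columns that match no sample, and these were not used.

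The values were transformed to log2(RPKM + 1), which understates changes of genes with low RPKM. Genes whose mean over a fit reached 1 RPKM were tested with limma 3.58.1 (R 4.3.3; linear models with moderated variances that follow a mean trend), and p-values were adjusted by Benjamini-Hochberg over all genes tested, with a threshold of 0.05. All 4 primary tumor groups were fitted together. Samples of the same kind from a mouse were averaged, so that n counts mice for HPAF-II and libraries for KPC. Metastases were fitted with the tumors of the 2 genotypes that gave them, and KPC lines in a fit of their own. For each member, mean log2 values were also compared by an exact permutation test (two-sided). The limma steps were tested on simulated data with known changes. Python 3.11.15, pandas 2.3.3, numpy 2.4.6, scipy 1.17.1 and matplotlib 3.10.9 were used for tables and figures.

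All 9 members were described in the order type I, type II and type III. Of 7 lists of partners, S-adenosylmethionine supply, readers, hydrolysis and substrates, up to 4 called genes of a list and comparison were named, those of smallest p, and for PRMT1, CARM1 and PRMT5 the 3 genes of highest correlation. The members, the lists and the tests were chosen with earlier results of these data known. Of the gene IDs, 58250 of 58719 (human) and 54409 of 54446 (mouse) were found in the annotation when versions were ignored. Coordinates are those of GRCh38, and promoter windows are from RefSeq.

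Mice that gave both a tumor and a metastasis pair these by animal (5 pairs of samples, correlation of deviations from the group means 0.0241 to 0.359). Tumor and KPC replicate numbers were checked in the same way. As alternatives, the pseudocount was set to 0.1, the RPKM filter was dropped, samples were brought to a common median, fits held only the 2 groups at issue, and a mouse's tumors were kept separate. Further alternatives were a block for the replicate number or mouse, host stroma as a covariate, omission of the spleen metastasis, each mouse or library left out in turn, and KPC replicates in pairs. Leaving out both tumors that stood apart and removing a trend on exon length and GC content (splines with 5 degrees of freedom) were added after the data were seen.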

Additional observations from a re-analysis of the deposited data

Results flagged for a closer look

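PRMT6 was at 4.55 RPKM in HNF4G-KO tumor 4, far from the other 3 tumors of that label (6.58 to 6.69 RPKM). Carm1 was at 21.0 RPKM in replicate 4 of the KPC tumor line, above the other 3 replicates (18.0 to 18.5 RPKM). Chance alone marks about 1 in 20 groups as holding such a sample, and 32 combinations of member and group were examined.

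In mice that gave both tissues, PRMT2 was lower in the metastasis than in the tumor of both mice labeled HNF4G-KO (log2 -0.32 and -0.12) and higher in both mice labeled HNF4G-KO + FOXA1-OE (0.13 and 0.25). CARM1 went the same way, with -0.15 and -0.17 in the former and 0.55 and 0.29 in the latter. With 2 mice of each label, the difference between the labels was not tested.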

How the results depend on the processing

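Over 1120 values of members under the alternatives, 1041 kept their side of the threshold and moved by less than a standard error where not called, 54 moved by more, 10 lost and 15 gained a call, and no called value changed sign, while 109 uncalled values did. The 1 member called between HNF4G-KO and control became 0 with no RPKM filter, when a mouse's tumors were kept separate, with the replicate number as a block and in all 7 fits that left out a mouse (0 to 0), and became 2 in a fit of the 2 groups alone. Between HNF4G-KO + FOXA1-OE and control the count of 0 became 1 with samples shifted to the same median, 2 without both tumors that stood apart and 2 with the trend on exon length and GC content removed. Between HNF4G-KO + FOXA1-OE and FOXA1-OE it became 1 with the median shift (PRMT2), 1 with the trend removed, 2 without both tumors, and 0 to 2 when a mouse was left out (2 without FOXA1-OE tumor 3 and 1 without tumor 2). Between the KPC lines it became 2 with replicates 1 and 2 alone. The cause of these changes was not tested.

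Counts over all genes moved more. Between HNF4G-KO and control, 1736 genes were called, against 284 without control tumor 2 and 5595 in the fit of 2 groups. Between HNF4G-KO + FOXA1-OE and control the 670 genes became 25 in the fit of 2 groups and 1382 with the trend removed, and against FOXA1-OE the 1122 genes became 86 in the fit of 2 groups and 2414 with the block.

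Tumor numbers did not pair the samples, since deviations from the group means of 19 same-numbered pairs correlated by -0.526 to 0.497. With the number as a block, PRMT1 differed by -0.47 between HNF4G-KO and control (adjusted p = 0.137 by limma). The mouse as a block in metastases and the replicate number as a block in KPC lines left 0 members called, as without it. KPC libraries of the same number correlated by -0.412 to 0.209.

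Whether depth limited the 8 members above the filter was not tested. PRMT8 rested on at most 4 reads in a library, at the depths in reads given above. With 2 to 4 mice in a group, differences whose intervals reach across 0 were not resolved.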
